A study of Arabidopsis thaliana with 2 samples.

Results

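In the pollen of Arabidopsis thaliana, 30 protein-coding genes that were well represented in a Col-0 library stood at under 2% of that level in a Ler-0 library. They were chosen by their values in these libraries: annotated as protein-coding, at least 10 FPKM (fragments per kilobase of gene, scaled to the depth of the library) in Col-0, and a Col-0 FPKM more than 50 times that in Ler-0. The rule sets a ratio and not an absence of reads, and the most abundant of them in Ler-0, AT3G28810, kept 38.9 FPKM there. The tables list 33322 nuclear loci, 27213 of them protein-coding, and 2250 coding genes reached 10 FPKM in Col-0. The 30 genes are 1.33% of those 2250. Their low Ler-0 values are what chose them and are given as a description with no test.

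Each ecotype has 1 library of pollen, so no difference has a replicate check. Ler-0 is Landsberg erecta, a laboratory strain with the erecta mutation, and Col-0 is Columbia, the strain behind the reference genome. Both grew in long days at 22 °C, and pollen was shaken off open flowers into buffer, passed through a 30 um mesh, and used for ScriptSeq-v2 libraries from rRNA-depleted total RNA. The series concerns transposon small RNAs set off by a microRNA and the response to genome dosage. Whole reads could be recovered from the deposited values, 88952509 in the Ler-0 library and 76488187 in the Col-0 library. A gene of 1 kb with 3 reads would stand at 0.0337 FPKM in Ler-0 and 0.0392 in Col-0. All 8 vegetative cell markers were expressed (FPKM of 1 or more), with summed levels of 9737 FPKM in Ler-0 against 11699 in Col-0, and all 5 sperm markers were, with sums of 286 FPKM in Ler-0 and 186 in Col-0. None (0) of 6 tapetum markers was expressed, with sums of 0.677 FPKM in Ler-0 and 0.827 in Col-0, while 4 of 5 green tissue markers were, with sums of 40.9 FPKM in Ler-0 against 37.9 in Col-0, and no marker of any list was at 0. The part of such cells in the values below was not tested.

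Mature pollen holds a large vegetative cell, the source of the pollen tube, and the sperm cells it carries to the ovule. The tube grows at its tip, guided by calcium and proton fluxes through channels and exchangers, by enzymes that loosen and rebuild the wall, and by small cysteine-rich peptides that the tube secretes and senses. Genes of pollen often sit in tandem families of recent origin. In RNA of whole pollen, fewer cells with a transcript and less of it per cell cannot be told apart. No Ler-0 genome was used here and reads were counted on a Col-0 genome, so a silent gene and a gene that is missing from the Ler-0 genome or differs there cannot be told apart either.

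The 30 genes held 6363 reads in Ler-0, 0.00715% of that library, against 539455 reads in Col-0, 0.705% of that one. Their Ler-0 levels ran from 0.0650 to 38.9 FPKM with a median of 0.223, and their Col-0 levels from 12.3 to 2287 FPKM with a median of 58.2. In Ler-0, 26 of them were under 1 FPKM and 4 were at 1 FPKM or more. The Ler-0 level was between 0.0461% and 1.97% of the Col-0 level, with a median of 0.636%, and 13 genes were under 0.5%. For 24 genes the upper bound of the exact 95% counting interval lay under 2%. This interval comes from the same reads that chose the genes and covers counting error only. Just 4 genes rested on 3 or fewer Ler-0 reads. A pair of genes, AT1G34095 and AT3G28810, held 68.4% of the Col-0 reads of the 30.

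**Figure D1:**
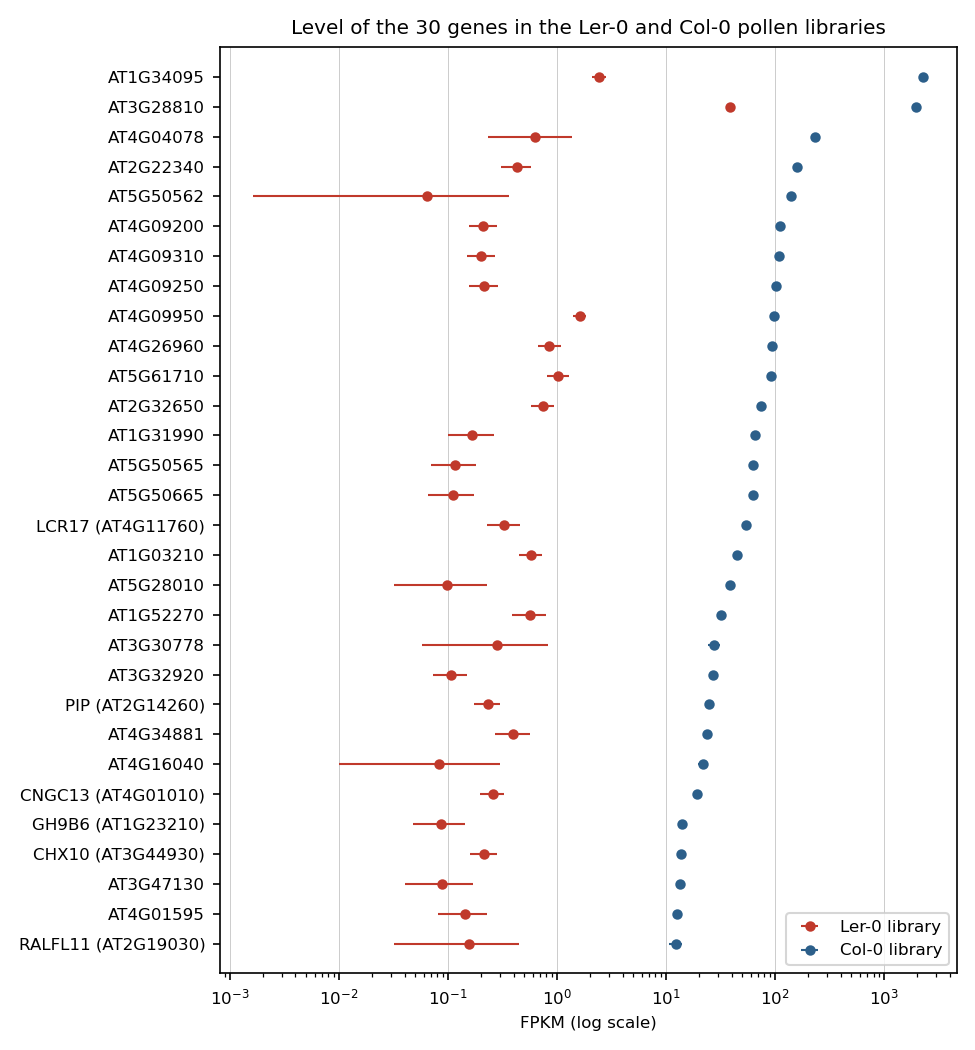
FPKM (log scale) of each of the 30 genes in the Ler-0 library (red) and the Col-0 library (blue), 1 library each, with exact 95% Poisson counting intervals as bars. Red points lie between 0.0650 and 38.9 FPKM and blue points between 12.3 and 2287 FPKM, and the intervals are widest where few reads were counted, as at AT5G50562 with 1 read in Ler-0.

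The most abundant of the 30 was AT1G34095, an uncharacterized gene with 4 annotated exons on chromosome 1 (12411670 to 12412514, minus strand, TAIR10). It had 184 reads and 2.45 FPKM in Ler-0, against 147637 reads and 2287 FPKM in Col-0. By FPKM it ranked 4995 among the protein-coding loci in the Ler-0 library and 45 among those in the Col-0 library. Its level in Ler-0 was 0.107% of that in Col-0 (95% interval 0.0922 to 0.124%). Its start is shown because it carries a sequence known from retrotransposons, which prime reverse transcription with the 3′ end of a host tRNA and so hold the complement of that end next to their long terminal repeat. The letters run from 250 bases before to 50 bases after the annotated start (chr1:12412465-12412764, minus strand, TAIR10 sequence with gene starts of the RefSeq TAIR10.1 annotation). The first capitals mark TATAAA and the second the complement of the end of the tRNA for methionine.
AT1G34095: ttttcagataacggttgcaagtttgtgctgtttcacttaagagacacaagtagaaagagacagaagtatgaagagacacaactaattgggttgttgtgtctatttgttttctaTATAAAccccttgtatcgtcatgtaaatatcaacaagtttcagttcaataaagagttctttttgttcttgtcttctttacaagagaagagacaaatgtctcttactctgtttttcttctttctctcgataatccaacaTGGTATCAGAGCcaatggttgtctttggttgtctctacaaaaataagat

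The 12 bases TGGTATCAGAGC are the reverse complement of the 3′ end, with its CCA, of 8 nuclear tRNA genes for methionine, and were sought in the gene spans on both strands after this sequence had been seen. The ends of the other nuclear tRNA genes for methionine give 5 further sets of 12 bases, such as TGGTGGGGTGAG from 11 genes, and none (0) of the 30 genes holds any of these. The bases TGGTATCAGAGC begin at base 2 of the AT1G34095 span. Of the 30 genes this was 1, of the 2250 coding genes at 10 FPKM or more in Col-0 there were 2 (0.0889%), of all 27213 coding loci 28 (0.103%), and of 3895 transposable element genes 43 (1.10%). Other expressed coding genes with these letters did not share the low Ler-0 level. With the letters on the other strand, the F-box associated gene AT2G18320 stood at 40.3 FPKM in Ler-0 against 0.489 in Col-0. An acyltransferase gene, AT1G51260, also with them on the other strand, stood at 23.0 FPKM in Ler-0 and 28.6 in Col-0. Also with them on the other strand, AT3G60961 was lower in Ler-0 (0.589 FPKM against 1.41 in Col-0), while AT1G01670, AT2G27540 and AT5G48000 were higher. The other genes with the letters on the gene strand were all higher in Ler-0. Unlike AT1G34095, they hold the letters further into the span, beginning between base 282 and base 3093. They were AT3G20950 (15.0 FPKM in Ler-0 against 0.398 in Col-0), AT5G53740 (21.2 against 1.58), AT5G42820 (2.92 against 0.238) and AT2G14700 (1.40 against 0.774). A match is a description of the letters. The nearest transposable element gene lies 0.268 kb from AT1G34095. The gene also matches AT2G45403, a coding gene of no named product on another chromosome, with 92.2% identity over 387 bases. The match lies in the opposite orientation of the genome sequence, and AT2G45403 stood at 244 FPKM in Ler-0 against 857 in Col-0.

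The other gene near the top of the Col-0 library was AT3G28810, of the DUF1216 family, a set of plant proteins defined by a shared domain of unknown function. It had 5087 reads and 38.9 FPKM in Ler-0, against 221496 reads and 1970 FPKM in Col-0. Among protein-coding loci it ranked 997 in Ler-0 and 61 in Col-0. At 1.97% of the Col-0 level (1.92 to 2.03%) it lies just inside the threshold and is the highest of the 30 in Ler-0. It sits in a row of related genes on chromosome 3 whose values ran in both directions. AT3G28780 stood at 129 FPKM in Ler-0 against 77.5 in Col-0, and AT3G28840 at 30.1 FPKM in Ler-0 and 7.21 in Col-0. AT3G28820, the next gene, stood at 72.7 FPKM in Ler-0 and 577 in Col-0, a ratio of 0.126 (0.124 to 0.129). It is 93.9% identical to AT3G28810 over 1085 bases that lie in the opposite orientation along the chromosome. AT3G28830 stood at 623 FPKM in Ler-0 against 1894 in Col-0, and AT3G28790 at 387 FPKM in Ler-0 and 605 in Col-0. AT3G28810 thus had the lowest ratio of the row, and its neighbours shared in part of the difference or went the other way. Of 9 other expressed genes of the family, 2 had an FPKM at least 4-fold lower in Ler-0 and 1, AT3G28840, at least 4-fold higher. The lower ones were AT3G28820 and, on chromosome 5, AT5G39870 (5.96 FPKM in Ler-0 against 45.2 in Col-0).

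**Figure D2:**
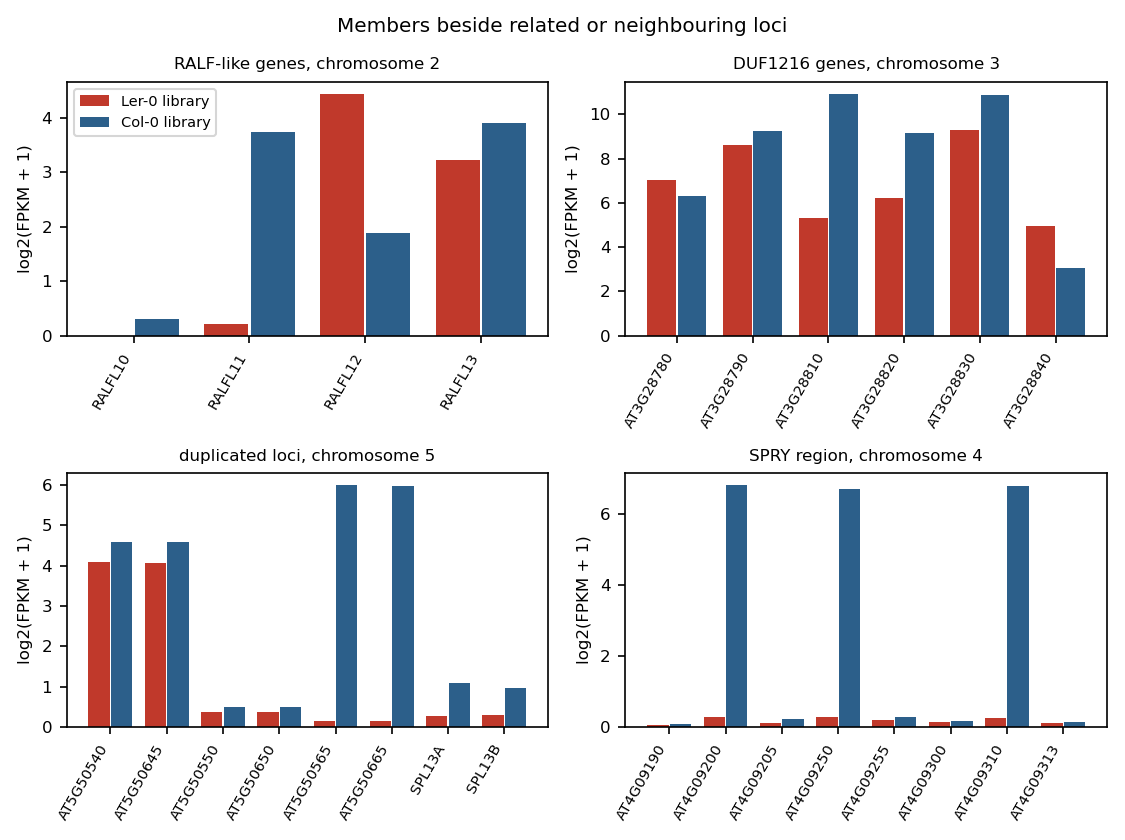
Level as log2(FPKM + 1) in the Ler-0 library (red, left) and the Col-0 library (blue, right) for some of the 30 genes and loci beside them or related to them, 1 library each. RALFL11, AT3G28810, AT5G50565 with AT5G50665, and the SPRY genes AT4G09200, AT4G09250 and AT4G09310 are low in Ler-0, while the loci around them are tall in both libraries or low in both, apart from AT3G28820, and RALFL12 and AT3G28840 are higher in Ler-0.

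Secreted signalling peptides were represented by RALFL11 and LCR17. RALF peptides (rapid alkalinization factors) are small secreted cysteine-rich proteins, and RALFL4 and RALFL19 are known to hold the growing pollen tube intact through the receptors ANX1 and ANX2. RALFL11 (AT2G19030, 219 bases, a single exon) had 3 reads and 0.155 FPKM in Ler-0, against 205 reads and 12.3 FPKM in Col-0, which is 1.26% of the Col-0 level with a wide interval of 0.257 to 3.73%. It is the least abundant of the 30 in Col-0. RALFL12 and RALFL13 follow it on chromosome 2 and are near copies, shown with it since reads could be divided among them. The spans are chr2:8247783-8248001, chr2:8249923-8250141 and chr2:8251674-8251892, plus strand, TAIR10, and capitals mark the 17 positions at which the 3 genes are not all the same.
RALFL11: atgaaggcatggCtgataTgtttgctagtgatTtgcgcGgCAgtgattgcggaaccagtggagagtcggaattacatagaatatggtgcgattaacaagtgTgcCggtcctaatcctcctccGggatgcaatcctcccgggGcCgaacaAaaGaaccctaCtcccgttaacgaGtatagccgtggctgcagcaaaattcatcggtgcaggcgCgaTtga
RALFL12: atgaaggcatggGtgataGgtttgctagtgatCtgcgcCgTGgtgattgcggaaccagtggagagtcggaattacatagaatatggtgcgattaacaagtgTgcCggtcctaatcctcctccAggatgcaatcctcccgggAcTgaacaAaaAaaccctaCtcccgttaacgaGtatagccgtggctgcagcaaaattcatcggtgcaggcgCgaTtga
RALFL13: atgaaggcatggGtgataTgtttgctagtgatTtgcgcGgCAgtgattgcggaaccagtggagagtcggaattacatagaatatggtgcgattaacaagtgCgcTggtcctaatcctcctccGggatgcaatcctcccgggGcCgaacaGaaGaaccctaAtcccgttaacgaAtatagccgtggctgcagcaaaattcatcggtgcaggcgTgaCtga

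RALFL11 differs from RALFL12 at 10 positions (95.4% identity) and from RALFL13 at 8 (96.3%), while RALFL12 and RALFL13 differ at 16 (92.7%). RALFL12 went the other way, with 403 reads and 20.8 FPKM in Ler-0 against 45 reads and 2.70 FPKM in Col-0, a ratio of 7.70 (5.65 to 10.7). RALFL13 had 162 reads and 8.35 FPKM in Ler-0 against 234 reads and 14.0 FPKM in Col-0. Pooled over the 3 genes, the libraries held 568 reads in Ler-0 against 484 in Col-0. Scaled to the depth of the libraries, the ratio of these reads was 1.01 (0.892 to 1.14). The low Ler-0 value of RALFL11 was therefore not seen in the summed reads of the 3 copies, and how reads that fit more than one copy were counted is not given in the sources used here. Relatives were compared on the log2 ratio of FPKM + 1 (that in Ler-0 over that in Col-0, centred on genes expressed in both libraries), called the FPKM + 1 scale from here on, which draws low genes together, and also on FPKM as deposited. On the FPKM + 1 scale 1 of 15 other expressed RALF-like genes was at least 4-fold lower in Ler-0 (RALFL30, 28.5 FPKM in Ler-0 and 127 in Col-0), 1 was at least 4-fold higher (RALFL12), and the median was -0.83. RALFL18 was also lower on FPKM as deposited, with 3 reads in Ler-0 and 24 in Col-0. Among all 9562 expressed loci 2.22% were lower by 4-fold or more in Ler-0 on the FPKM + 1 scale, 3.44% were higher by as much, and the median was 0.06. These shares were, on FPKM as deposited, 6.56% and 9%. RALFL4 stood at 1555 FPKM in Ler-0 against 3013 in Col-0, and RALFL19 at 1198 FPKM in Ler-0 and 2089 in Col-0.

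LCR17 (AT4G11760) belongs to the low-molecular-weight cysteine-rich genes, relatives of the plant defensins. It had 33 reads and 0.329 FPKM in Ler-0, against 4656 reads and 53.9 FPKM in Col-0, a level of 0.609% (0.419 to 0.857%). No near-identical copy of it was found. On the FPKM + 1 scale 2 of 15 other expressed LCR genes were at least 4-fold lower in Ler-0: LCR72 stood at 121 FPKM in Ler-0 against 756 in Col-0, and LCR31 at 6.37 FPKM in Ler-0 and 31.0 in Col-0. LCR15 stood at 106 FPKM in Ler-0 against 101 in Col-0, and LCR11 at 208 FPKM in Ler-0 and 85.7 in Col-0, so abundant LCR genes were found on both sides. LCR8 was lower too on FPKM as deposited, at 0.292 FPKM in Ler-0 against 3.78 in Col-0, while LCR5 was higher, at 5.33 FPKM in Ler-0 against 1.17 in Col-0.

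Ion transport was represented by CHX10 and CNGC13. CHX10 (AT3G44930) is a cation/H+ exchanger, one of a family with many members in pollen, and had 50 reads and 0.215 FPKM in Ler-0 against 2728 reads and 13.6 FPKM in Col-0. The level was 1.58% (1.17 to 2.08%). Its tandem neighbour CHX11, 90.9% identical over 2363 bases, stood at 8.46 FPKM in Ler-0 and 16.8 in Col-0. All 13 other expressed CHX genes were less than 4-fold apart on the FPKM + 1 scale, with a median of -0.06, among them CHX23 at 1753 FPKM in Ler-0 and 1232 in Col-0. A pair of them passed 4-fold on FPKM as deposited, both upwards in Ler-0. CHX19 stood at 17.1 FPKM in Ler-0 against 3.55 in Col-0, a ratio of 4.83 (4.46 to 5.24), and CHX9 at 1.84 FPKM in Ler-0 against 0.293 in Col-0, a ratio of 6.27 (4.83 to 8.26). CNGC13 (AT4G01010) encodes a cyclic nucleotide-gated channel, a class that carries calcium across the tube membrane. It had 61 reads and 0.257 FPKM in Ler-0 against 3943 reads and 19.3 FPKM in Col-0, a level of 1.33% (1.02 to 1.71%). The 6 other expressed channels of the family were less than 4-fold apart on both scales, with CNGC18, known to be needed for tube growth, at 58.8 FPKM in Ler-0 and 54.1 in Col-0.

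Enzymes of the wall and of metabolism formed a further group. GH9B6 (AT1G23210), an endoglucanase of glycosyl hydrolase family 9 that acts on wall glucans, had 15 reads and 0.0863 FPKM in Ler-0 against 2100 reads and 14.0 FPKM in Col-0, a level of 0.614% (0.343 to 1.02%). In the same family GH9C3 stood at 31.2 FPKM in Ler-0 against 0.0680 in Col-0, the opposite pattern, while the other 8 expressed members were less than 4-fold apart on the FPKM + 1 scale, with GH9B11 at 531 FPKM in Ler-0 and 427 in Col-0. GH9B9 was more than 4-fold lower on FPKM as deposited, at 2.24 FPKM in Ler-0 against 10.5 in Col-0, a ratio of 0.213 (0.190 to 0.239). PIP (AT2G14260), a proline iminopeptidase that removes proline from the start of peptides, had 56 reads and 0.231 FPKM in Ler-0 against 5156 reads and 24.8 FPKM in Col-0, a level of 0.934% (0.704 to 1.21%). AT1G03210, related to the phenazine biosynthesis protein PhzF of bacteria, had 66 reads and 0.574 FPKM in Ler-0 against 4463 reads and 45.2 FPKM in Col-0, a level of 1.27% (0.982 to 1.62%). Neither PIP nor AT1G03210 had another expressed coding gene of the same product text.

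AT5G28010, of the polyketide cyclase and lipid transport superfamily, had 5 reads and 0.0988 FPKM in Ler-0 against 1693 reads and 38.9 FPKM in Col-0, a level of 0.254% (0.0824 to 0.594%). AT2G32650, with the barrel-shaped fold of RmlC-like cupins, had 67 reads and 0.740 FPKM in Ler-0 against 5848 reads and 75.1 FPKM in Col-0. It is 98.01% identical to PTAC18 (AT2G32180), which is listed as a part of the plastid transcription complex, and to AT2G32179, and both were under 1 FPKM in each library. With the reads of all 3 loci summed, the level was 2.34% (1.99 to 2.73%), against 0.985% (0.762 to 1.25%) for AT2G32650 alone. The summed FPKM was 1.54 in Ler-0 against 75.9 in Col-0. Whether PTAC18 and AT2G32179 share reads was not tested. AT2G32650 also overlaps a further locus, AT2G32645. All 10 other expressed genes of the polyketide cyclase group and all 7 of the cupins were less than 4-fold apart on the FPKM + 1 scale. AT1G23130 of the polyketide cyclase group passed 4-fold on FPKM as deposited, at 3.44 FPKM in Ler-0 against 0.568 in Col-0, as did the cupin gene AT3G04190 in the other direction, at 0.305 FPKM in Ler-0 against 1.91 in Col-0.

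The P-loop NTPases AT4G09950 and AT3G32920 carry the nucleotide-binding loop of many ATPases and GTPases. AT4G09950 had 222 reads and 1.61 FPKM in Ler-0 against 11485 reads and 96.9 FPKM in Col-0, a level of 1.66% (1.45 to 1.90%). Its 3 neighbours on each side were under 1 FPKM in both libraries. AT3G32920 had 33 reads and 0.106 FPKM in Ler-0 against 7265 reads and 27.2 FPKM in Col-0, and is 91.4% identical over 1507 bases to RECA2, a recombination gene that stood at 0.464 FPKM in Ler-0 and 1.17 in Col-0. It overlaps the transposable element gene AT3G32925, which had 14 reads in Ler-0 and 4658 in Col-0, so the reads of this pair cannot be told apart. AT4G01595, a protein kinase gene, had 16 reads and 0.142 FPKM in Ler-0 against 1210 reads and 12.5 FPKM in Col-0. Stretches of it match MPK18 (95.6% over 452 bases), AT2G24680 (95.8% over 238 bases) and ALIS1 (96.9% over 223 bases), and it overlaps the noncoding AT4G01593. On the FPKM + 1 scale none (0) of 68 other expressed P-loop genes and 105 other expressed kinases was at least 4-fold lower in Ler-0, while 1 P-loop gene and 2 kinase genes were at least 4-fold higher. On FPKM as deposited 1 of each group was lower, which were the P-loop gene AT5G45440 (0.225 FPKM in Ler-0 against 1.96 in Col-0) and the kinase gene AT1G21245 (0.315 FPKM in Ler-0 against 2.01 in Col-0), while 5 P-loop genes and 8 kinase genes were higher.

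AT3G47130, of the F-box associated family that includes substrate adaptors of ubiquitin ligases, had 9 reads and 0.0890 FPKM in Ler-0 against 1175 reads and 13.5 FPKM in Col-0. Its family was the most divided, with 4 of 10 other expressed members higher in Ler-0 by 4-fold or more on the FPKM + 1 scale, 1 lower by as much, and a median of 1.01. The counts were 5 higher and 2 lower on FPKM as deposited. Among the higher ones, AT5G52080 stood at 106 FPKM in Ler-0 and 2.57 in Col-0. AT5G61710, listed as a cotton fiber protein, had 73 reads and 1.02 FPKM in Ler-0 against 5637 reads and 91.9 FPKM in Col-0, a level of 1.11% (0.872 to 1.40%). Of 7 other expressed cotton fiber genes, 1 was at least 4-fold lower on the FPKM + 1 scale and none (0) higher, with a median of -0.68. The lower one was AT5G13880, at 2.92 FPKM in Ler-0 against 18.3 in Col-0. On FPKM as deposited 2 were lower and none (0) higher. The median of the 9 other expressed DUF1216 genes was -0.70 on the FPKM + 1 scale.

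**Figure D3:**
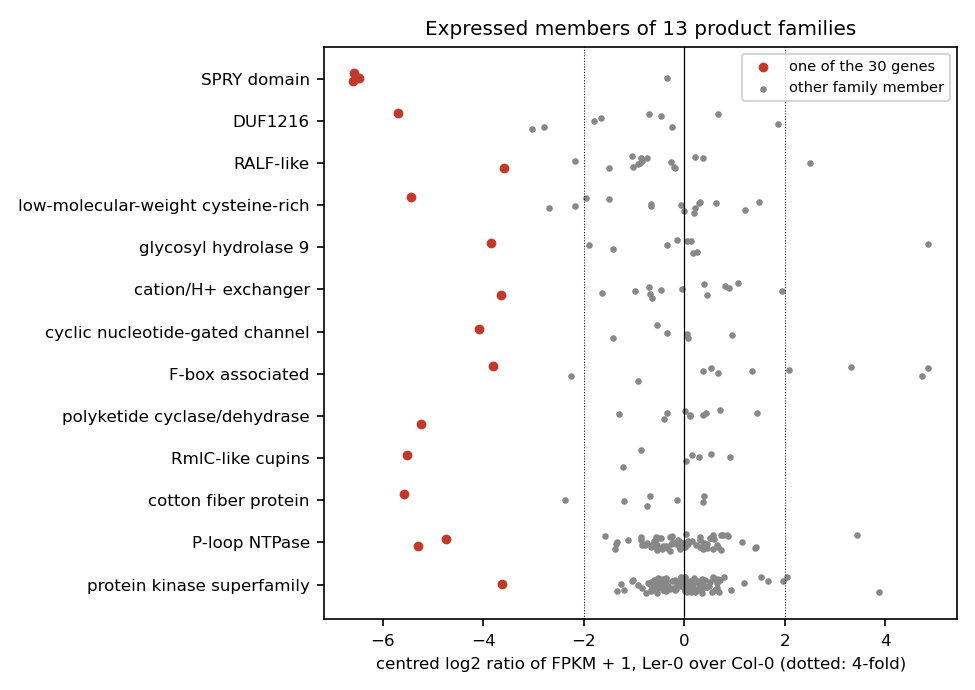
Centred log2 ratio, Ler-0 over Col-0 on FPKM + 1, for expressed genes of 13 product families, with the 30 genes in red and other family members in grey, and dotted lines at 4-fold on that scale. Red points were placed at the left by how they were chosen, while most grey points lie between the dotted lines.

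Over all 15 product families, which hold 18 of the 30 genes, 275 other members were expressed. On the FPKM + 1 scale 7 of these (2.55%) were at least 4-fold lower in Ler-0, while 9 (3.27%) were at least 4-fold higher, beside 1.92% and 2.13% of all 8692 expressed coding genes. Their median was -0.08, against 0.03 over those coding genes. On FPKM as deposited 15 (5.45%) were lower and 25 (9.09%) higher, beside 5.9% and 6.14% of the coding genes. Pooled in this way, the shares of lower relatives lay near those of coding genes in general on both scales. Most of the pool, however, is the 105 kinase and 68 P-loop genes. None (0) of those was lower on the FPKM + 1 scale, and 1 of each group was on FPKM as deposited. All 7 lower relatives on the FPKM + 1 scale thus came from the smaller families, where the share was higher than in the pool. Most of the 9 higher ones came from those families too. They were 4 F-box associated genes, RALFL12 and GH9C3, beside 1 P-loop and 2 kinase genes. The relatives in the smaller families thus differed in both directions.

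The remaining groups are sets of copies. The SPRY genes AT4G09200, AT4G09250 and AT4G09310 on chromosome 4 take their name from a domain that binds other proteins. They had 48, 46 and 46 reads in Ler-0 and 21559, 18658 and 21168 reads in Col-0. Pooled, 140 reads in Ler-0 stood against 61385 in Col-0, a level of 0.196% (0.165 to 0.231%). The copies are identical over the 2401 bases that all share, and the identity runs past the genes: AT4G09200 and AT4G09310 lie in a pair of identical stretches of 3717 bases. The letters before both starts are therefore the same, and are shown for AT4G09200 (chr4:5858994-5859293, plus strand, TAIR10). They hold no TATAAA on the gene strand, so nothing is in capitals.
AT4G09200: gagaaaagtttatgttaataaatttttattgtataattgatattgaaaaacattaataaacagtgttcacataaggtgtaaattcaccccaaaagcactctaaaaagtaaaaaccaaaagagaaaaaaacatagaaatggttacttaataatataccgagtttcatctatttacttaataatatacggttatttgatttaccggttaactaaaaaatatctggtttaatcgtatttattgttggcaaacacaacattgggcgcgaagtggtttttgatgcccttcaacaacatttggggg

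A single exact copy cannot be told from another by its reads, so the values of the 3 genes describe the set. All of the 3 loci before and after each of them, transposable element genes included, were under 1 FPKM in both libraries, and the bHLH gene FBH2 beside them stood at 0.334 FPKM in Ler-0 against 0.383 in Col-0. The other expressed SPRY gene of the same product text, AT4G09340, stood at 0.738 FPKM in Ler-0 against 1.10 in Col-0. The abundant Col-0 transcript of this region was thus confined to the 3 copies among the loci examined.

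AT5G50565 and AT5G50665 on chromosome 5 lie in an exact duplication: the stretch from 20571766 to 20597484 is identical over 25719 bases to that from 20605108 to 20630826. AT5G50562 lies inside AT5G50565 on the other strand, and matches AT5G50665 as well. They had 19, 18 and 1 reads in Ler-0 and 8887, 8773 and 1864 in Col-0, and pooled a level of 0.167% (0.118 to 0.230%). By its listed value the lowest of the 30 was AT5G50562, with 0.0650 FPKM in Ler-0 against 141 in Col-0, or 0.0461% (0.00117 to 0.257%). Since the use of strand is not given, its reads may be reads of AT5G50565. In that case the pooled level counts them more than once. Other genes of the duplication fell less far or not at all, and SPL13A and its copy were among those lower in Ler-0. AT5G50540 and its copy AT5G50645 stood at 16.0 and 15.7 FPKM in Ler-0, against 23.1 and 23.0 in Col-0. SPL13A (AT5G50570), a squamosa promoter-binding transcription factor gene that overlaps AT5G50565, stood at 0.213 FPKM in Ler-0 and 1.14 in Col-0, a ratio of 0.188 (0.134 to 0.259), and its copy AT5G50670 at 0.225 FPKM in Ler-0 against 0.946 in Col-0. That copy, which does not overlap AT5G50665, had a ratio of 0.238 (0.166 to 0.334). The other duplicated pairs were under 1 FPKM in both libraries, so their ratios are not given. AT5G50540 and AT5G50645 had 1369 and 1346 reads in Ler-0, against 1696 and 1693 in Col-0.

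AT4G04078 is a gene of 108 bases with a single exon and no named product. It had 6 reads and 0.630 FPKM in Ler-0 against 1910 reads and 233 FPKM in Col-0, a level of 0.270% (0.0990 to 0.589%). It overlaps the noncoding AT4G04077, which had 106 reads and 1.58 FPKM in Ler-0 against 52386 reads and 910 FPKM in Col-0, so its reads may belong to that longer RNA. A near copy on chromosome 3, AT3G42148, had 0 reads in Ler-0 and 1 in Col-0. Both are shown since they are alike in letters and not in level within Col-0 (chr4:1961640-1961747 and chr3:14308062-14308169, both minus strand, TAIR10), with capitals at the 5 positions at which they differ.
AT4G04078: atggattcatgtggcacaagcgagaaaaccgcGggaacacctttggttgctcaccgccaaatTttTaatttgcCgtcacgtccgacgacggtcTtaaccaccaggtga
AT3G42148: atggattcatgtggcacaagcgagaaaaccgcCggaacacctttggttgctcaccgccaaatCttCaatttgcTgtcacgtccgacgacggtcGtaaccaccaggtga

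AT2G22340, also of no named product, had 41 reads and 0.428 FPKM in Ler-0 against 13084 reads and 159 FPKM in Col-0. The pseudogene AT2G03291 matches it at 96.0% over 1009 bases and had 77 reads in Ler-0 against 697 in Col-0. Pooled with it the level was 0.736% (0.609 to 0.882%), against 0.269% (0.193 to 0.366%) alone. AT1G31990 had 19 reads in Ler-0 and 6404 in Col-0, a level of 0.255% (0.153 to 0.399%), with no copy and no overlap. AT4G26960 had 69 reads in Ler-0 against 6485 in Col-0, with an overlap with AT4G26965. The others of no named product are AT1G52270 with 34 reads in Ler-0 and 1644 in Col-0, AT4G34881 with 31 in Ler-0 against 1619 in Col-0, and AT4G16040 with 2 in Ler-0 and 454 in Col-0. AT3G30778, 120 bases long and not in the RefSeq annotation, had 3 reads in Ler-0 against 249 in Col-0.

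The values close to the thresholds show where the set ends. Just inside the fold threshold lie AT3G28810 (50.6-fold lower in Ler-0), AT1G52270 (56.2-fold) and AT4G09950 (60.2-fold). Just outside it are AT4G08140 (48.6-fold, 0.530 FPKM in Ler-0 and 25.8 in Col-0), AT3G13610 (43.1-fold), AT3G44713 (40.7-fold), AT1G09995 (37.6-fold, 3.79 FPKM in Ler-0 against 143 in Col-0) and AT5G49850 (32.9-fold). Just inside the Col-0 level are RALFL11 at 12.3 FPKM, AT4G01595 at 12.5 and AT3G47130 at 13.5. Under it, but past the fold, came AGL54, a MADS-box gene, at 0.0200 FPKM in Ler-0 against 7.97 in Col-0, and AT4G20700 at 0.0567 FPKM in Ler-0 and 7.89 in Col-0. Further down came AT5G53742 at 0.0972 FPKM in Ler-0 and 7.80 in Col-0, AT3G18950 at 0.122 FPKM in Ler-0 against 6.22 in Col-0, and AT1G20490 at 0.0468 FPKM in Ler-0 and 4.62 in Col-0. Past the fold threshold no coding gene had a Col-0 level between 7.97 and 12.3 FPKM, while the folds themselves ran on across the threshold.

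Most expressed neighbours of the 30 genes did not share the low Ler-0 level. Among the 3 listed loci before and the 3 after each of the 30, 172 distinct loci were not themselves of the set, and 116 of those were under 1 FPKM in both libraries. On the FPKM + 1 scale 48 of the 56 expressed ones were less than 4-fold apart, 7 (12.5%) were at least 4-fold lower in Ler-0, while 1 (1.79%, RALFL12) was at least 4-fold higher, with a median log2 ratio of -0.36. The background over all expressed loci was 2.22% and 3.44%, as above. On FPKM as deposited 8 (14.3%) were lower, with SPL13A added, and 5 (8.93%) were higher, beside 6.56% and 9% of all expressed loci. The higher ones then included the cysteine desulfhydrase gene DES1 near AT5G28010, at 1.73 FPKM in Ler-0 and 0.0256 in Col-0, a ratio of 67.7 (26.2 to 250), with AT5G27990 (12.2), AT4G01023 (9.98) and AT3G28840 (4.18). Of the 7 lower ones, 3 overlap a gene of the set, so that their reads may be the same reads. The 4 that do not overlap were AT1G03200 beside AT1G03210 (9.81 FPKM in Ler-0 and 73.5 in Col-0), AT3G28820 of the DUF1216 row, AT4G01600, a GRAM domain gene beside AT4G01595 (0.126 FPKM in Ler-0 against 4.34 in Col-0), and AT5G61680, a pectin lyase-like gene near AT5G61710 (44.3 FPKM in Ler-0 and 367 in Col-0). For 7 of the 30, every one of the 6 neighbours was under 1 FPKM in both libraries. Abundant neighbours could also be even between the libraries: beside AT1G52270, ROPGEF11, an activator of the Rop GTPases that steer tip growth, stood at 98.4 FPKM in Ler-0 and 110 in Col-0.

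**Figure D4:**
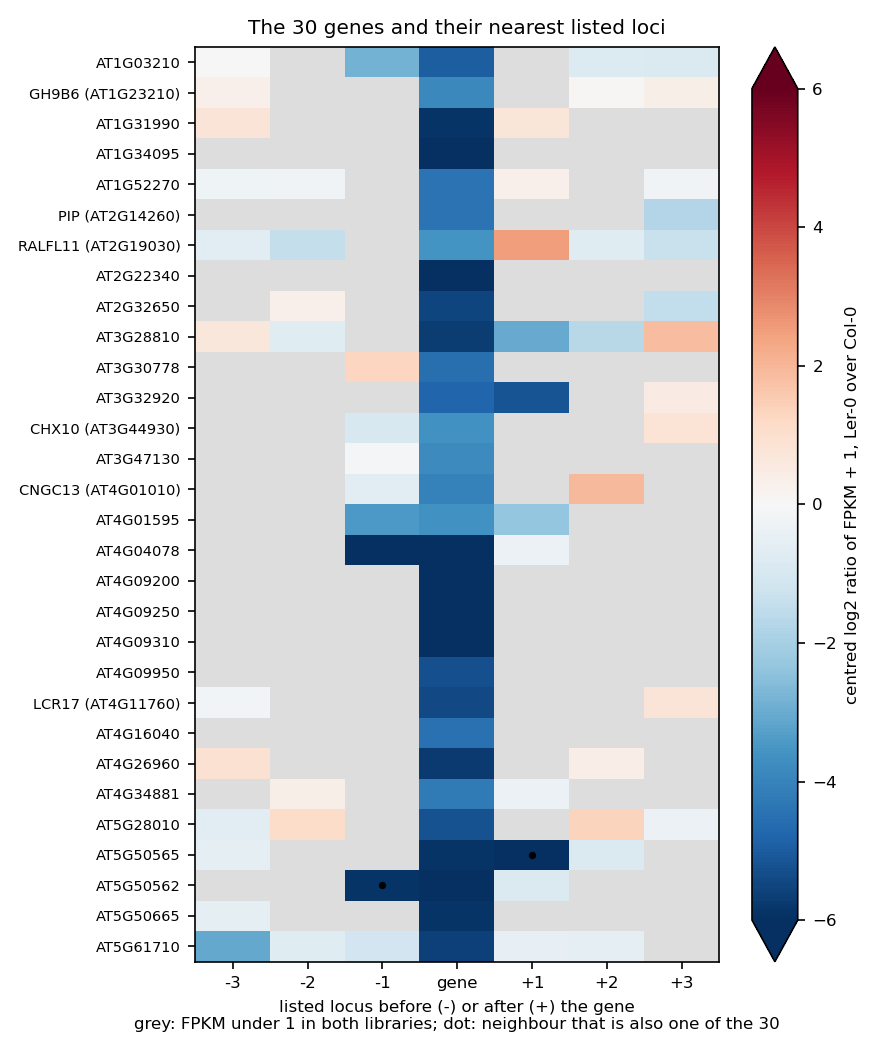
Centred log2 ratio, Ler-0 over Col-0 on FPKM + 1, for each of the 30 genes (middle column) and the 3 listed loci before and after it, with blue for lower in Ler-0, red for higher, grey for under 1 FPKM in both libraries, and a dot where a neighbour is itself of the set. The blue of the middle column follows from how the genes were chosen, and most coloured cells beside it are pale, with 7 neighbours at least 4-fold lower and 1 at least 4-fold higher on this scale.

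Several features of the genome that the rule did not use set the 30 genes beside the 2250 coding genes at 10 FPKM or more in Col-0, which include them, and beside the 16 coding genes that met the same rule in the opposite direction (0.703% of 2277). A near-identical copy (95% identity or more, over 50% of the gene or more) was found for 10 of 30 (33.3%), counting copies within the set, against 1 of 16 (6.25%) and 41 of 2250 (1.82%). A product of no name was listed for 12 of 30 (40%), against 2 of 16 (12.5%) and 190 of 2250 (8.44%). A transposable element gene lay within 10 kb of 12 of 30 (40%), against 3 of 16 (18.8%) and 318 of 2250 (14.1%), and the median distance to one was 16.3 kb for the 30, 59.0 kb for the 16 and 77.7 kb for the 2250. The 30 had a median span of 1203 bases and 3 exons, against 1394 bases and 3 exons for the 16 and 2201 bases and 5 exons for the 2250. Their median GC content was 39.4%, against 40.8% for the 16 and 39.4% for the 2250. No test was made of these differences, and short genes, copies and genes of no named product overlap as classes. Copies that share reads can also enter the set together, so these counts are not of independent genes. The SPRY genes and the genes of the chromosome 5 duplication each give 3 of the 10 with a copy. The SPRY genes give 3 of the 12 near a transposable element gene, and those of the duplication 3 of the 12 of no named product.

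**Figure D5:**
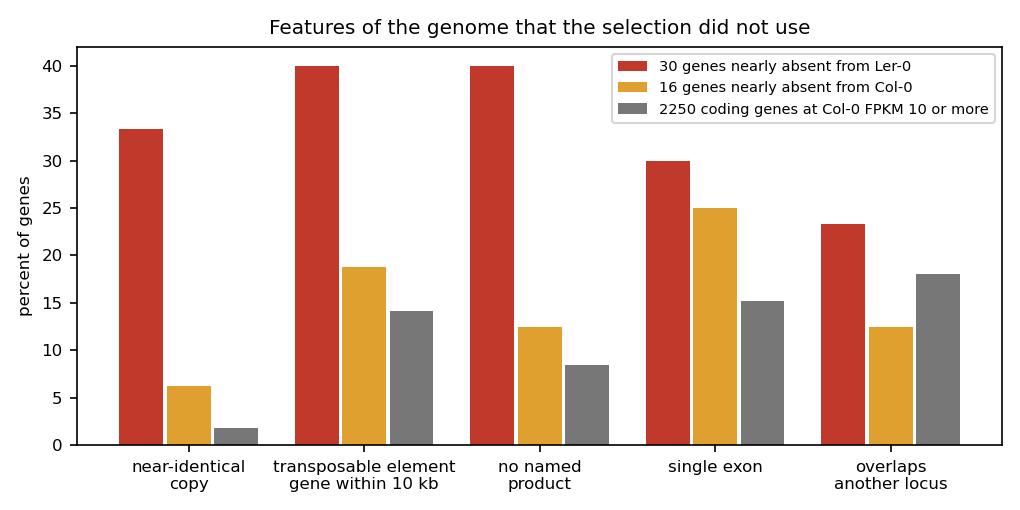
Percent of genes with each of 5 features for the 30 genes nearly absent from Ler-0 (red), the 16 nearly absent from Col-0 (yellow) and the 2250 coding genes at 10 FPKM or more in Col-0 (grey). The red bars reach 33.3% for copies and 40% for both nearby transposable element genes and products of no name, against grey bars of 1.82%, 14.1% and 8.44%, while overlap with another locus is 23.3% against 18.1%.

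A single exon was annotated for 9 of the 30, against 4 of the 16 and 341 of the 2250 (15.2%). Overlap with another listed locus was seen for 7 of 30 (23.3%), against 407 of 2250 (18.1%). By chromosome, 1 to 5 in order, the 30 fell as 5, 4, 5, 11 and 5 genes, and the 2250 as 605, 353, 450, 321 and 521. Within 100 kb of another gene of the set lay 6 genes, which are the SPRY trio and the chromosome 5 trio. Counting out genes with a copy at 95% identity or an overlap, 17 of the 30 remain. These include CHX10, CNGC13, GH9B6, LCR17, PIP and AT1G34095. At 90% identity CHX10 and AT3G28810 have a copy as well, in CHX11 and AT3G28820, so that the 17 depend on this limit.

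The letters TATAAA, a core promoter motif, were sought from 250 bases before to 50 after the annotated start. They were found on the gene strand in 14 of 29 annotated genes of the set (48.3%), in 842 of 2223 coding genes at 10 FPKM or more in Col-0 (37.9%) and in 10039 of 26725 coding genes in all (37.6%). On either strand the shares were 58.6%, 52.9% and 52.6%. Counted from the annotated start, the motif began at -28 in GH9B6 and at -29 in RALFL11, and the nearest of 4 in AT3G28810 at -30. In the other genes with the motif it began further away, between -41 (AT4G09950) and -236 (AT5G28010). No test was made of these shares, and a match or its absence says only which letters this window of the Col-0 genome holds.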

How the data were processed

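RNA of Arabidopsis pollen was measured by RNA sequencing in 1 Ler-0 and 1 Col-0 library. The values are FPKM per locus, which the authors computed, per the file headers. The submitters' processing notes name Subread and the build TAIR10, with no version or role. How reads with several alignments were handled, whether strand was used, and whether single reads or pairs were counted: each is not given in the sources used here. From the values, FPKM is per kilobase of gene span, end minus start, introns included.

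Multiplied by the span, 100% of the FPKM values came out as whole numbers of a common step, to within 0.01, which gave the reads per locus. No count test was run, since each ecotype has 1 library. The Ler-0 level in percent of Col-0 has an exact Clopper-Pearson 95% interval, and levels in figures have exact Poisson intervals. Pooled levels are ratios of summed reads, scaled to the depth of the libraries. Intervals and the floor of 3 reads cover counting error only. Log2 ratios used FPKM + 1, which understates changes of low genes, so counts past 4-fold among neighbours and relatives were added on FPKM with no pseudocount after the data had been seen. Log2 ratios were centred by the median of 0.06 over 6656 loci at FPKM 1 or more in both libraries. Expressed means FPKM 1 or more in either library.

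The 30 genes, families and marker lists were chosen with earlier results of these data known. All 30 are accounted for. Those described with neighbours and copies were the 12 of highest Col-0 FPKM, those with near-identical copies or within 100 kb of another, and those with a named product. Genes of other families named as examples were chosen after their values were seen. Locus tags tied the loci to the RefSeq TAIR10.1 annotation (32834 of 33322) for products, exons and gene starts. Annotated coding sequence lay inside the deposited span for 95.9% of 26710 matched coding loci, so TAIR10 coordinates were used with the sequence of that assembly's 5 chromosomes. Copies were sought with BLAST 2.17.0 over all loci. Python 3.11.15, pandas 2.3.3, numpy 2.4.6, scipy 1.17.1, Biopython 1.88 and matplotlib 3.10.9 were used, and the procedure was tested on simulated data. Alternatives changed the thresholds, pseudocount, scaling, and the limits for copies, overlap and distance. No Ler-0 genome and no protein sequences were used here.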

Additional observations from a re-analysis of the deposited data

How the results depend on the processing

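With 1 library per ecotype no value has a replicate error, leaving out a library is not possible, and depth limits the genes with few Ler-0 reads. No paired analysis was possible because a single library stands for each ecotype. The count of 30 genes depends most on its thresholds: it was 19 at a fold of 100, 297 with no minimum FPKM and 11 with 1 added to both values before the ratio. The other alternatives for it, which were a fold of 20, a minimum of 5 or 20 FPKM, 0.1 added to both values, rescaling to coding loci, median centring and the bound of the counting interval, gave 24 to 40. The 16 genes of the opposite direction became 34 at a fold of 20, 6 at a fold of 100, 8 at a minimum of 20 FPKM, 838 with no minimum, 1 with 1 added, and 9 by the bound of the interval. The 6 genes within 100 kb of another became 2 within 10 kb and 14 within 1000 kb, and the 7 that overlap a locus became 3 where at least 50% of the gene had to overlap. The 10 genes with a near-identical copy were 12, 10 or 7 under the other limits. Reads pooled over near-identical copies gave 100.9% of the Col-0 level for RALFL11 and 2.34% for AT2G32650, both past the 2% limit of the set, while the other 8 genes with copies stayed under it. On FPKM as deposited, an alternative chosen after seeing the data, 5 neighbours and not 1 passed 4-fold upwards in Ler-0 while 8 and not 7 passed it downwards, and of the family relatives 15 and not 7 were lower while 25 and not 9 were higher. Uncentred, the log2 ratios of the 30 ran from -9.37 to -3.53, rescaled to coding loci from -9.36 to -3.52, and with a pseudocount of 0.1 from -9.89 to -5.53. With a pseudocount of 5 they ran from -8.30 to -1.78, and 25 of the 30 stayed at least 4-fold lower. The cause of these shifts was not tested, beyond the fewer or more genes that each threshold admits by construction.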

Other observations

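The same rule applied to loci that are not protein-coding found 7 of the 3895 listed transposable element genes, 3 noncoding RNA genes and 1 small nucleolar RNA gene. How many loci of these types reached 10 FPKM in Col-0 was not counted, nor was the opposite direction. These counts therefore cannot be set beside the share of coding genes. The most abundant was AT4G04077, which overlaps AT4G04078. Next came the transposable element gene AT1G31210, with 48 reads and 0.127 FPKM in Ler-0 against 32367 reads and 99.6 FPKM in Col-0. AT3G32925 and AT4G01593 overlap AT3G32920 and AT4G01595 and share their low Ler-0 values. The small nucleolar RNA gene AT3G21805 had 0 reads in Ler-0 against 71 in Col-0. The transposable element genes AT3G28153 (0.102 FPKM in Ler-0 and 15.8 in Col-0), AT3G42450 (0.307 in Ler-0 against 16.9 in Col-0) and AT5G59640 (0.125 in Ler-0 and 14.5 in Col-0) stood near the Col-0 minimum of the rule.

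The 16 coding genes nearly absent from the Col-0 library instead had few products in common with the 30. They included PEX11D, which divides peroxisomes, at 148 FPKM in Ler-0 against 1.94 in Col-0, and the serpin gene SRP3 at 33.7 FPKM in Ler-0 and 0.115 in Col-0. BIP3, an Hsp70 chaperone gene of the endoplasmic reticulum, stood at 16.7 FPKM in Ler-0 and 0.204 in Col-0. A glycosyl hydrolase of family 9 (GH9C3), an F-box associated gene (AT2G18320) and a P-loop gene (AT5G35970 at 12.6 FPKM in Ler-0 and 0.214 in Col-0) were found on this side, as GH9B6, AT3G47130 and the P-loop genes AT4G09950 and AT3G32920 were on the other. The lowest Col-0 counts among the 16 were 1 read for AT4G16215, against 803 in Ler-0, and 1 read for AT5G28465, against 273 in Ler-0.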
